A study of Mus musculus with 12 samples.

Results

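Clustered protocadherins are cell-surface adhesion proteins of the cadherin superfamily, encoded by 3 neighbouring gene clusters named alpha, beta and gamma. The genes described here were chosen by symbol, as every row of the expression tables whose name is that of an alpha, beta or gamma protocadherin, and the set was proposed with the values of both genotype comparisons known. The rule found 57 genes, of 27592 listed in the male tables and 26048 in the female tables: 13 alpha, 22 beta and 22 gamma genes. Because the values of both contrasts were known when the set was chosen, the fold changes of these genes are given as a description and carry no test. The lists of other genes below were also chosen with earlier results of these data known. Their counts, shares and p-values are therefore a description too, and no independent support is drawn from them.

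RNA was measured in glomeruli of the mouse model of X-linked Alport syndrome (AS), in which Col4a5, a type IV collagen gene, carries a mutation (tm1Yseg) on the C57BL/6J background. The groups were hemizygous male AS mice (Col4a5-/- in the labels, mAS), male C57BL/6J wild-type mice (mWT), heterozygous female AS mice (Col4a5+/-, fASht) and female C57BL/6J wild-type mice (fWT), all aged 3.5 months by the labels (a supplementary legend of the study gives a slightly higher age for males), with 3 samples listed for each group. The labels give no treatment, and the mutation is carried in the germ line. Glomeruli were obtained from minced and collagenase-digested kidney cortex by passage through strainers, so that the preparation also holds tubule fragments, and the study describes the isolation mouse by mouse. The labels do not say that each sample is a separate mouse. For males, a supplementary legend of the study gives n = 3 for WT mice and n = 3 for AS mice. The p-values given for other genes measure only the spread between these samples, which may in part be technical.

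Alpha and gamma protocadherins are made by joining a single variable exon, each with its own promoter, to a set of constant exons at the end of the cluster. The variable exon encodes the extracellular cadherin repeats, the membrane span and part of the tail, and the constant exons encode a tail common to the cluster. Beta protocadherins are single-exon genes with no constant part. In neurons each cell uses its own combination of promoters, and matching combinations on facing membranes bind each other, which is best known from self-avoidance of neurites. Promoter choice is known to depend on the looping factor CTCF and on cohesin, and silent promoters on DNA methylation and Smchd1. The C-type genes at the end of the alpha and gamma clusters are used more uniformly from cell to cell than the other members.

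All 57 genes lie on the plus strand of chromosome 18 in GRCm38 (GENCODE M21 annotation, in which every symbol was found). The alpha cluster runs from 36930184 to 37187661, the beta cluster from 37264938 to 37524479 and the gamma cluster from 37661793 to 37841873. Each beta gene has 1 exon block, while the alpha genes have 4 and the gamma genes 3 to 5. The members of a cluster overlap in annotation to different degrees. A median of 53.6% of the exon bases of an alpha gene and 44.7% of those of a gamma gene are also exon of another member, against 0% for a beta gene, where the highest share is 9.67%. A read from the constant exons therefore cannot be given to a single alpha or gamma gene from its position alone.

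The tables hold counts that were divided by a TMM factor for each library (the trimmed mean of M-values, a scaling that makes most genes comparable), so a whole read appears as a multiple of a fixed step in each column. Among values below 100 steps, 214 of 225 beta values (95.1%) lay within 0.01 of a step of a whole number of reads. This held for 0 of 92 gamma values (0%), 14 of 71 alpha values (19.7%) and 76.9% over all genes. A value just above 0 also counts here, so the alpha share is not one of whole reads. Most of the 14 alpha values were such traces, as Pcdhac2 at 0.0032 in mWT replicate 3. Pcdha4 in mAS replicate 1, at 0.7745, was 1 read. The share over all genes may hold such traces too. Gamma values and most alpha values were thus not whole reads, and nearly all of these beta values were. In mWT replicate 2, mWT replicate 3 and fASht replicate 3 every alpha gene held some value above 0, most of them well below a single read. For these reasons the summed value of a cluster is given beside each member, since a sum does not depend on how shared reads were divided. A gamma member's own value does depend on it.

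**Figure D1:**
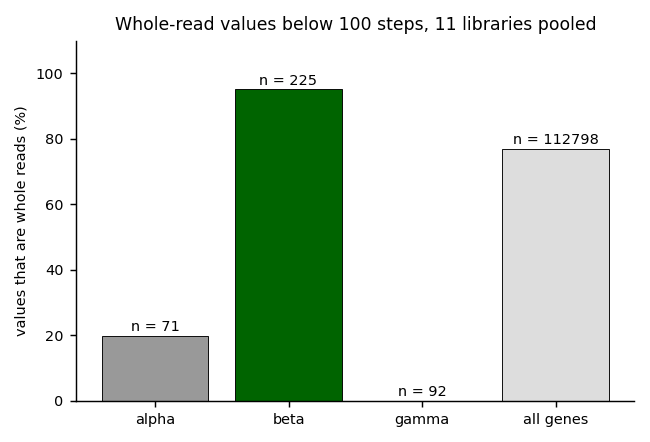
Bars give the percent of values below 100 steps that lie within 0.01 of a step of a whole number of reads. They are shown for the alpha, beta and gamma genes and for all genes, with the 11 distinct libraries pooled and the number of values above each bar. Values just above 0 count as well, and they make up most of the alpha bar. Beta values are whole reads in 95.1% of cases and gamma values in 0%.

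The third female wild-type table repeats the first in all 20971 values above 0, within a relative tolerance of 1e-06, and both were counted as 1 sample, which leaves 11 distinct libraries. Column totals were 14242206 to 15379574 in mAS, 16737295 to 23182937 in mWT, 16941020 to 17153145 in fASht and 17777238 to 20152078 in fWT, which corresponds to an estimated 14494678 to 20309418 read pairs per library. The female column headers begin with 1 identifier for the AS libraries and another for the wild-type libraries. What the identifiers stand for is not given in the sources used here, and whatever they mark cannot be told apart from genotype in females. Col4a5 had 727, 674 and 572 in mAS against 1209, 1854 and 1426 in mWT (log2 fold change -1.15, standard error 0.18, adjusted p = 0.00609 from limma). In females it had 1187, 1210.4 and 1329.5 in fASht against 2329 and 1752 in fWT (log2 fold change -0.69, standard error 0.14, adjusted p = 0.0684 from limma). Glomerular markers (Nphs1, Pecam1 and the other genes of the podocyte and endothelial lists) were above 0 in every group, and tubule markers were present as well.

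Gamma genes carried most of the protocadherin signal in glomeruli of every group. They made up 81.7% to 86.4% of the summed value of all members in the 11 libraries, beta genes 13.5% to 18.04% and alpha genes 0.098% to 0.338%. Per kilobase of annotated exon, Pcdhgc3 stood first, with a mean level of 261 TMM-scaled counts per kilobase in mAS, 174.7 in mWT, 209 in fASht and 283 in fWT. Next were Pcdhga10, with 112.5, 75.5, 90.7 and 113.7 in the same order of groups, and Pcdhgb6, with 93.3, 78.6, 84.1 and 121.8, of which Pcdhga10 was the higher in mAS and fASht and Pcdhgb6 in mWT and fWT. Pcdhgb2 followed with 73.1, 63.1, 73.5 and 87.8. The lowest gamma level per kilobase in mWT was that of Pcdhgc5, at 1.42. Among beta genes, Pcdhb17 had the highest mean level per kilobase in each group, at 24.3 in mAS, 18.1 in mWT, 20.1 in fASht and 22.6 in fWT, and Pcdhb6 the lowest in mWT of the 19 beta genes at or above 1 CPM (a value of 1 per 1000000 of the library's column total) in any group, at 3.18. In absolute terms Pcdhgc3 alone held 24.9% to 31.0% of the gamma sum in each library.

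Summed over their members, the gamma and beta clusters were higher in mAS than in mWT in every library, and lower in fASht than in fWT in every library. The gamma sum was 4101, 5619 and 4971 in mAS against 3469, 4006 and 3094 in mWT, a ratio of means of 1.39 (log2 ratio 0.48, standard error 0.17). Its mean was 4897 ± 762 in mAS (SD, n = 3) and 3523 ± 458 in mWT (SD, n = 3). The beta sum was 829.5, 878 and 980.4 in mAS against 766, 759 and 555 in mWT, a ratio of 1.29 (log2 ratio 0.37, standard error 0.17). All 3 mAS libraries lay above all 3 mWT libraries in both sums. In females the gamma sum was 4488, 4005 and 3668 in fASht against 5852 and 4776 in fWT, a ratio of 0.763 (log2 ratio -0.39, standard error 0.17), and the beta sum was 814, 835 and 690.3 in fASht against 1143 and 880.3 in fWT, a ratio of 0.771 (log2 ratio -0.38, standard error 0.21). Of the females, fWT replicate 1 had the highest sum of both clusters and fASht replicate 3 the lowest. Without fWT replicate 1 the female beta log2 ratio was -0.17. The alpha sum overlapped between the groups in both sexes, with 7.75, 6.35 and 6.96 in mAS against 12.3, 10.4 and 6.06 in mWT, and 17.5, 15.4 and 12.6 in fASht against 15.1 and 19.2 in fWT, each a total of a few reads. In RNA of whole glomeruli, fewer cells of a type and less RNA per cell cannot be told apart.

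**Figure D2:**
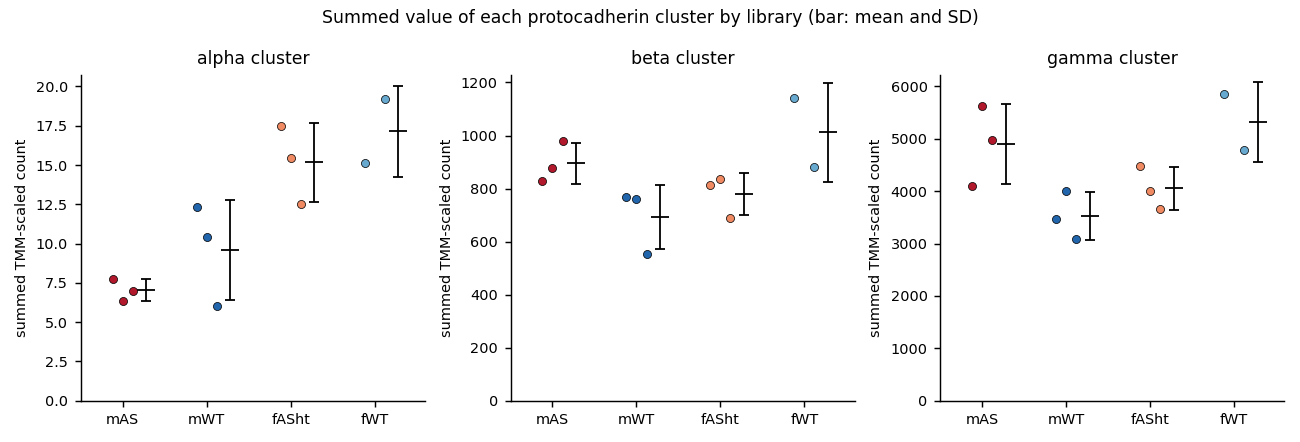
Points give the summed TMM-scaled count of the alpha, beta and gamma cluster in each of the 11 distinct libraries, with the mean and SD of each group beside them (mAS, mWT and fASht n = 3, fWT n = 2). The beta and gamma sums of mAS lie above those of mWT and those of fASht below those of fWT, while the alpha sums overlap.

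The split by cluster within a library hardly varied. The gamma share of all members was lowest in mWT replicate 1, at 81.7%, and highest in mAS replicate 2, at 86.4%. Whether the male ratios of the 3 gamma subfamilies differed was not tested. The gamma A sum (12 genes) was 1582, 1874 and 1840.2 in mAS against 1219, 1446 and 1201 in mWT, a ratio of 1.37 (log2 ratio 0.45, standard error 0.12), with no overlap. The gamma B sum (7 genes) was 1237, 1668 and 1587 in mAS against 1221, 1429.9 and 1098 in mWT, a ratio of 1.20 (log2 ratio 0.26, standard error 0.17), with overlapping groups. The gamma C sum (3 genes) was 1281, 2077 and 1544 in mAS against 1029, 1130.2 and 796 in mWT, a ratio of 1.66 (log2 ratio 0.73, standard error 0.25), with no overlap, and mAS replicate 2, where Pcdhgc4 was highest, had the highest sum. Leaving Pcdhgc4 out of the gamma sum, an alternative added after its values were seen, gave a male log2 ratio of 0.43 in place of 0.48. In females the ratios were close to each other, at 0.77 for gamma A, 0.769 for gamma B and 0.747 for gamma C, and only the A sums overlapped, with 1784, 1499 and 1162 in fASht against 2063 and 1783 in fWT.

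Of the 57 genes, 42 passed the filter on low values in each comparison (0.5 CPM in at least 3 libraries), which were all 22 gamma genes, 20 beta genes and no alpha gene. In males, 39 of the 42 had a fitted log2 ratio above 0 and their median was 0.27, against 50.1% above 0 and a median of 0.00 over the 15881 genes tested. Past the adjusted threshold of 0.05 in limma were 8 of the 42, all gamma and all higher in mAS, where 35.5% of all genes tested were called, 16.6% higher and 18.9% lower. The groups did not overlap for 16 members, 10 gamma and 6 beta, all higher in mAS, where this held for 26.0% of all genes tested in that direction and for 27.2% in the other. These counts come from the contrast that was known when the set was chosen and nothing is read from them. The 8 calls fell to 3 without mAS replicate 2, mWT replicate 1 or mWT replicate 3, and to 2 without mAS replicate 3. Only Pcdhga3 and Pcdhgc4 stayed past the threshold whichever library was left out. Calls over all genes tested fell in the same fits, from 2638 higher and 3003 lower. They were 1232 and 1760 without mAS replicate 2, and 999 and 1489 without mAS replicate 3. Without mWT replicate 1 they were 1450 and 1593, and 1354 and 1432 without mWT replicate 3. With column totals made equal, the median of all genes moved to 0.36. The share of calls that were higher moved to 78.8%, against 46.8%. The member count was then 20, and the median of the members stood 0.23 above that of all genes.

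In females, 39 of the 42 had a fitted log2 ratio below 0 and their median was -0.28, against a median of -0.01 over the 15803 genes tested, of which 48.7% lay above 0. None of the 42 passed the adjusted threshold in limma (at an unadjusted p under 0.05, 9 were lower and 1 higher), where 1.06% of all genes tested were called higher and 0.348% lower. The groups did not overlap for 16 of the 42 tested members with lower and 1 with higher values in fASht, where this held for 21.3% and 19.1% of all genes tested. Leaving out either fWT replicate leaves 1 fWT library. The median log2 ratio of the members was then -0.45 without fWT replicate 2, against -0.02 over all genes tested. It was -0.18 without fWT replicate 1, against -0.01. At an unadjusted p under 0.05 in limma with a fold over 1.5, 3 members passed. Of all 15803 genes tested, 1027 were higher and 335 lower at that threshold. With column totals equal, the median of all genes moved to 0.12 and no member passed. The share of calls that were higher moved to 92.9%, against 75.2%. The genotype effect differed between the sexes past the adjusted threshold for 10 members, all more positive in males, where this was so for 10.5% of all 15492 genes tested and the opposite for 12.8%. Leaving out fWT replicate 1 left 0 of these 10 past the threshold. Leaving out mWT replicate 1, mWT replicate 3 or fASht replicate 3 left 1, mAS replicate 3 left 2, mAS replicate 2 left 3, fASht replicate 2 left 4, fASht replicate 1 left 6 and fWT replicate 2 left 7. Only without mAS replicate 1 or mWT replicate 2 were all 10 kept. This difference is built from the contrasts that were known when the set was chosen, and nothing is read from it.

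**Figure D3:**
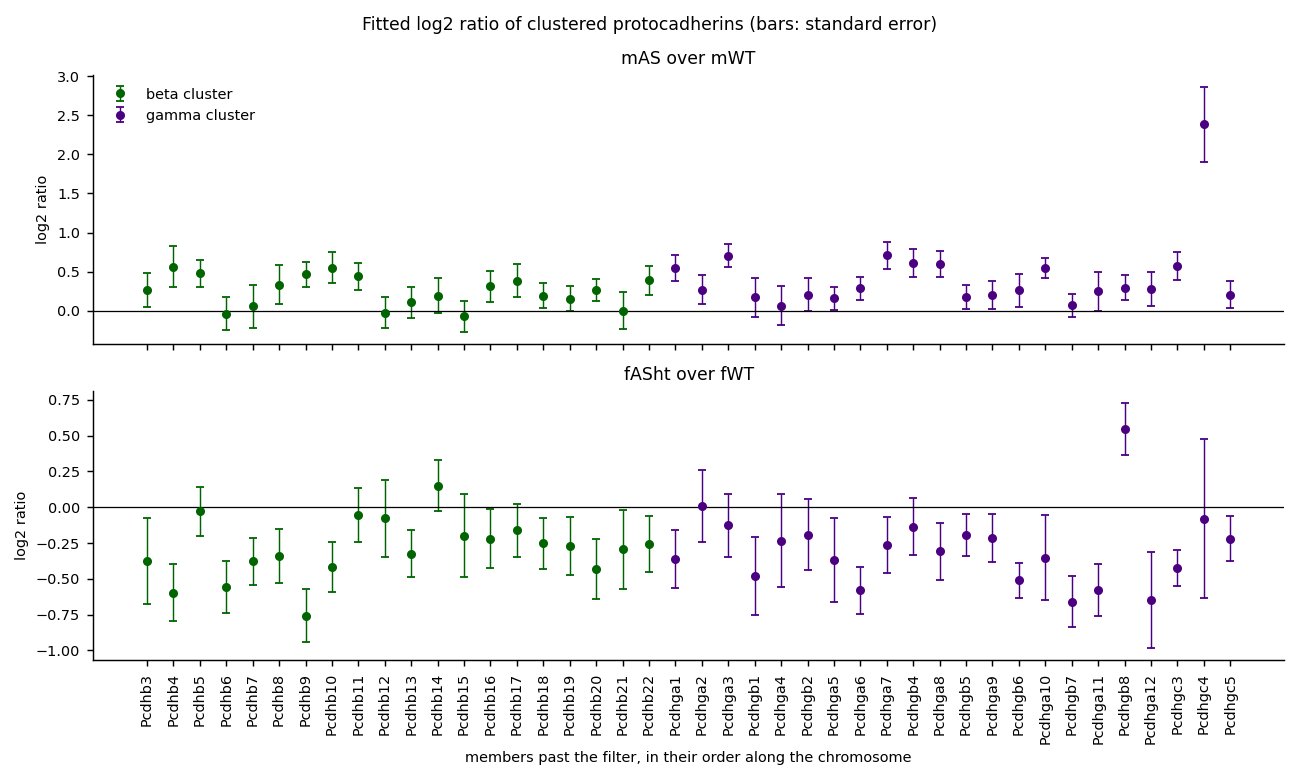
Points give the fitted log2 ratio of each of the 42 members past the filter, in their order along the chromosome, for mAS over mWT (top) and fASht over fWT (bottom), with the standard error as bars and the beta and gamma clusters in different colours. In males 39 of 42 points lie above 0, with Pcdhgc4 at 2.38, and in females 39 of 42 lie below 0, with Pcdhgb8 at 0.55 on the other side.

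The C-type gamma genes are the last 3 of the cluster, and their levels differed widely. Pcdhgc3, which outside the nervous system is also expressed in epithelia and endothelium, and lies from 37806364 to 37841873, had 1193, 1685 and 1434 in mAS against 1009.5, 1101 and 772 in mWT, and 1138, 1174 and 1137 in fASht against 1739.9 and 1376 in fWT. Its lowest mAS library lay above its highest mWT library, and its 3 fASht libraries, within a few percent of each other, lay below both fWT libraries. The fitted log2 ratio was 0.57 ± 0.18 in males and -0.42 ± 0.13 in females (standard error after ±, here and below). Pcdhgc4, known in mice for its requirement in the survival of neurons, lies from 37815079 to 37841873 and had 76.7, 370.4 and 96.2 in mAS against 9.77, 15.2 and 15.1 in mWT, and 13.1, 11.9 and 89.8 in fASht against 41.4 and 22.5 in fWT. All 3 mAS libraries stood above every mWT library, at 2.38 ± 0.48 on the log2 scale, and mAS replicate 2 held the highest value by far. In females fASht replicate 3 was high and the other 2 fASht libraries low, so the groups overlapped. Pcdhgc5 had 11.1, 21.9 and 13.4 in mAS against 9.97, 14.0 and 8.58 in mWT, and 9.24, 7.46 and 12.0 in fASht against 14.3 and 13.7 in fWT, a low level with overlapping groups in males and lower values in fASht.

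The higher level in mAS of Pcdhgc4 was not matched by the rest of its cluster. It made up 1.87%, 6.59% and 1.94% of the gamma sum in mAS, against 0.281%, 0.380% and 0.489% in mWT, while the share of Pcdhgc3 was 29.1%, 30.0% and 28.8% in mAS, against 29.1%, 27.5% and 24.9% in mWT. In females Pcdhgc4 made up 0.292%, 0.298% and 2.45% in fASht, against 0.707% and 0.471% in fWT. Per kilobase, the mean level of Pcdhgc4 was 32.4 in mAS, against 2.39 in mWT, and 6.84 in fASht, against 5.71 in fWT. Each AS mean rested largely on 1 library. It was 15.4 in mAS without mAS replicate 2, and 2.24 in fASht without fASht replicate 3, which is below fWT. Its constant exons are the same as those of Pcdhgc3 and Pcdhgc5, and its value, as those of the other gamma genes, may contain divided reads.

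**Figure D4:**
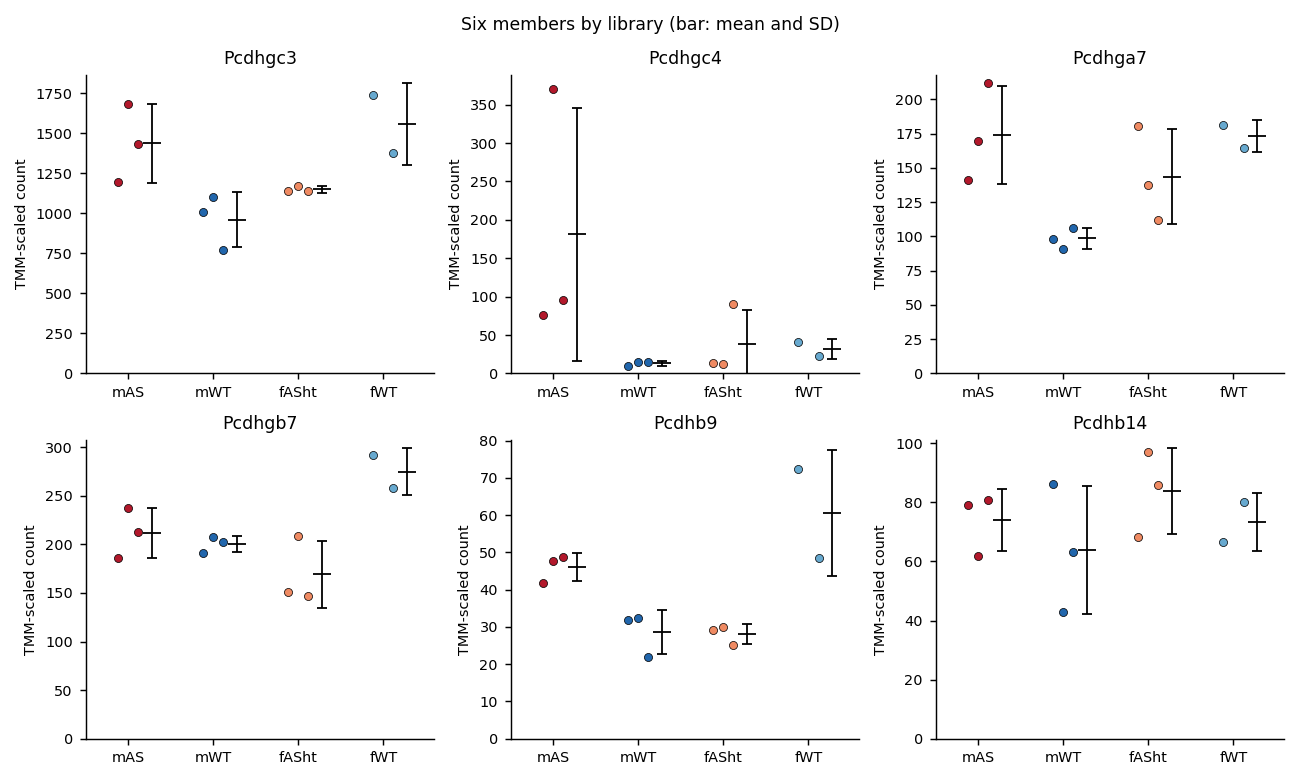
Points give the TMM-scaled count of Pcdhgc3, Pcdhgc4, Pcdhga7, Pcdhgb7, Pcdhb9 and Pcdhb14 in each of the 11 distinct libraries, with the mean and SD of each group beside them. Pcdhgc4 reaches 370.4 in mAS replicate 2, Pcdhgc3 and Pcdhb9 are higher in mAS and lower in fASht without overlap, and Pcdhb14 overlaps in both comparisons.

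Among the 12 gamma A genes, the male groups of Pcdhga1, Pcdhga3, Pcdhga6, Pcdhga7, Pcdhga8 and Pcdhga10 did not overlap. Pcdhga10, the gamma A gene with the highest level, had 481, 585 and 531 in mAS against 354, 383 and 335 in mWT, and 617, 361 and 308 in fASht against 637 and 439.5 in fWT. Its male log2 ratio was 0.55 ± 0.13, and in females the 3 fASht libraries were spread so widely that fASht replicate 1 came close to the higher fWT library. Pcdhga7 had 141, 170.0 and 212 in mAS against 98.1, 91.1 and 106 in mWT, and 181, 138 and 112 in fASht against 181 and 165 in fWT. Pcdhga3 had 98.1, 99.96 and 98.5 in mAS against 59.5, 55.0 and 47.4 in mWT, and 64.1, 108 and 65.0 in fASht against 81.4 and 89.9 in fWT. For these 2 genes the male log2 ratio was 0.71 ± 0.18 and 0.71 ± 0.14, and the females overlapped. Pcdhga8 had 87.5, 84.2 and 90.0 in mAS against 46.2, 65.5 and 45.2 in mWT, and 81.1, 67.8 and 49.5 in fASht against 77.5 and 92.8 in fWT. Pcdhga1, the first gene of the cluster, had 46.4, 48.3 and 56.6 in mAS against 24.4, 38.0 and 25.2 in mWT, and 28.6, 14.7 and 27.0 in fASht against 38.0 and 31.2 in fWT. Both were higher in all mAS libraries, at 0.60 ± 0.17 and 0.55 ± 0.17, and Pcdhga1 was lower in all fASht libraries as well. Pcdhga6 had 166, 181 and 216 in mAS against 152, 158 and 139.8 in mWT, and 186, 147 and 135 in fASht against 249 and 232 in fWT, with no overlap in either sex and in opposite directions, at 0.29 ± 0.15 in males and -0.58 ± 0.16 in females.

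The other 6 gamma A genes overlapped between the male groups. Pcdhga11 had 131, 139 and 125 in mAS against 65.3, 138 and 136 in mWT, and 95.6, 123 and 84.9 in fASht against 174 and 144 in fWT. Pcdhga12 had 108, 141 and 118 in mAS against 93.3, 134 and 71.5 in mWT, and 48.7, 136 and 104 in fASht against 144 and 158 in fWT. In both, the male groups overlapped, while every fASht library lay below both fWT libraries. Pcdhga9 had 76.2, 103 and 81.4 in mAS against 63.8, 89.5 and 66.8 in mWT, and 128, 94.3 and 104 in fASht against 135 and 121 in fWT. Pcdhga5 had 129, 137 and 135 in mAS against 102, 130.4 and 122 in mWT, and 156, 114 and 67.6 in fASht against 157 and 131 in fWT. Pcdhga4 had 82.0, 153 and 127 in mAS against 123, 135 and 81.6 in mWT, and 166, 144 and 66.8 in fASht against 132 and 152 in fWT. None of these 3 separated the groups in either sex, and fASht replicate 3 was the lowest female library for Pcdhga4 and Pcdhga5. Pcdhga2 had 35.8, 32.5 and 50.3 in mAS against 37.6, 27.7 and 23.8 in mWT, and 32.2, 51.6 and 37.4 in fASht against 55.2 and 27.3 in fWT, again with overlap in both sexes.

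Of the 7 gamma B genes, the male groups did not overlap for Pcdhgb4 and Pcdhgb8. Pcdhgb4 had 171, 214 and 233 in mAS against 144, 107 and 135 in mWT, and 246, 164 and 159.6 in fASht against 208 and 205 in fWT, at 0.61 ± 0.17 in males, with overlapping females. Pcdhgb8, a polymorphic pseudogene in the annotation, had 21.2, 17.3 and 18.7 in mAS against 11.2, 17.3 and 8.78 in mWT, and 23.3, 27.0 and 32.3 in fASht against 9.65 and 17.1 in fWT. It was the member that was higher in both male and female AS libraries without overlap, at 0.30 ± 0.16 and 0.55 ± 0.18, and its values were among the lowest of the cluster. Pcdhgb6 had 365, 479 and 467 in mAS against 328, 491 and 286 in mWT, and 417, 383 and 381 in fASht against 618 and 523 in fWT. Pcdhgb7 had 186, 237 and 212 in mAS against 191, 208 and 203 in mWT, and 151, 208 and 147 in fASht against 292 and 258 in fWT. Both overlapped in males, with Pcdhgb7 at 0.07 ± 0.14, and both were lower in all fASht libraries, at -0.51 ± 0.12 and -0.66 ± 0.18. Pcdhgb2 had 278, 427 and 366 in mAS against 290.4, 387 and 247 in mWT, and 416, 323 and 339 in fASht against 554 and 303 in fWT. Pcdhgb5 had 139, 161 and 177 in mAS against 129.5, 153 and 132 in mWT, and 183, 144 and 158 in fASht against 192 and 182 in fWT. Pcdhgb1 had 76.6, 133 and 114 in mAS against 127, 68.0 and 87.2 in mWT, and 107, 64.8 and 49.0 in fASht against 119 and 92.9 in fWT. These 3 overlapped in both sexes, and fWT replicate 1 was the highest female library of each.

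The beta genes were lower in level than the gamma genes, and their values were mostly whole reads of their own. For 6 of them the male groups did not overlap, all with higher values in mAS. Pcdhb9 had 41.8, 47.6 and 48.7 in mAS against 32.0, 32.3 and 21.8 in mWT, and 29.2, 30.0 and 25.1 in fASht against 72.5 and 48.6 in fWT. Pcdhb10 had 26.3, 39.7 and 33.9 in mAS against 16.0, 25.4 and 10.9 in mWT, and 25.9, 26.3 and 16.4 in fASht against 36.2 and 36.2 in fWT. Pcdhb20 had 54.2, 58.7 and 57.4 in mAS against 40.6, 48.5 and 43.6 in mWT, and 44.2, 39.0 and 50.2 in fASht against 84.6 and 50.9 in fWT. In these 3 the females did not overlap either and lay the other way, with female log2 ratios of -0.76 ± 0.18, -0.42 ± 0.18 and -0.43 ± 0.21, against male ones of 0.47 ± 0.16, 0.55 ± 0.20 and 0.27 ± 0.14. Pcdhb17, the beta gene with the highest level per kilobase, had 101, 132 and 107 in mAS against 101, 93.5 and 58.2 in mWT, and 106, 104 and 71.4 in fASht against 106 and 105 in fWT. Pcdhb11 had 38.0, 42.1 and 39.1 in mAS against 17.2, 26.6 and 31.5 in mWT, and 41.7, 50.8 and 30.9 in fASht against 46.3 and 39.6 in fWT. Pcdhb5 had 31.8, 19.8 and 22.6 in mAS against 13.5, 16.2 and 8.48 in mWT, and 20.9, 24.5 and 18.3 in fASht against 26.2 and 18.1 in fWT. These 3 were higher in mAS, with log2 ratios of 0.38 ± 0.21, 0.44 ± 0.17 and 0.48 ± 0.17, and overlapped in females.

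A further 4 beta genes above 1 CPM overlapped in males and were lower in every fASht library. Pcdhb4 had 36.4, 55.5 and 63.5 in mAS against 22.1, 49.7 and 19.4 in mWT, and 29.2, 46.3 and 49.2 in fASht against 76.5 and 65.5 in fWT. Pcdhb6 had 9.29, 9.52 and 13.0 in mAS against 17.2, 15.0 and 3.64 in mWT, and 9.18, 6.36 and 9.66 in fASht against 26.2 and 15.8 in fWT. In mWT replicate 3 Pcdhb6 was far below the other 2 mWT libraries, and its male log2 ratio was -0.04 ± 0.21. Pcdhb7 had 30.2, 29.4 and 35.7 in mAS against 39.4, 45.0 and 12.1 in mWT, and 25.0, 28.1 and 33.8 in fASht against 46.3 and 39.6 in fWT. Pcdhb8 had 23.2, 28.6 and 25.2 in mAS against 18.4, 30.0 and 6.06 in mWT, and 19.2, 31.8 and 18.3 in fASht against 34.2 and 32.8 in fWT. Both again had their lowest value in mWT replicate 3. The female log2 ratios of these 4 genes lay between -0.60 for Pcdhb4 and -0.34 for Pcdhb8.

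The remaining 9 beta genes above 1 CPM overlapped in both sexes. Pcdhb14 had 79.0, 61.9 and 80.9 in mAS against 86.1, 42.7 and 63.0 in mWT, and 68.4, 97.2 and 85.9 in fASht against 66.4 and 80.2 in fWT. Pcdhb16 had 79.8, 54.0 and 92.2 in mAS against 49.2, 61.2 and 58.2 in mWT, and 70.9, 67.2 and 75.3 in fASht against 111 and 65.5 in fWT. Pcdhb22 had 72.0, 103 and 94.8 in mAS against 72.1, 70.4 and 50.9 in mWT, and 84.2, 80.6 and 54.1 in fASht against 95.3 and 83.6 in fWT. With Pcdhb17 these 3 held 33.1% to 41.7% of the beta sum in each library. Pcdhb12 had 43.4, 44.4 and 51.3 in mAS against 67.8, 38.3 and 40.0 in mWT, and 64.4, 55.4 and 28.0 in fASht against 57.1 and 45.2 in fWT. Pcdhb15 had 20.1, 22.2 and 33.9 in mAS against 34.4, 28.9 and 19.4 in mWT, and 32.5, 25.4 and 16.4 in fASht against 47.3 and 18.1 in fWT. Pcdhb21 had 17.0, 18.3 and 34.8 in mAS against 32.5, 24.2 and 13.3 in mWT, and 28.4, 16.6 and 13.5 in fASht against 40.6 and 17.0 in fWT. The means of these 3 in mAS and mWT were close, with male log2 ratios of -0.03, -0.07 and 0.00. Pcdhb21 and Pcdhb22 overlap each other in the annotation, so part of their reads can be assigned to either. Pcdhb12 shares no exon bases with another member in the annotation, yet only 6 of its 11 values were whole reads. Pcdhb3 had 20.1, 29.4 and 31.3 in mAS against 13.5, 32.3 and 14.5 in mWT, and 6.67, 13.6 and 19.3 in fASht against 36.2 and 11.3 in fWT. Pcdhb18 had 45.7, 39.7 and 49.6 in mAS against 44.3, 32.3 and 35.1 in mWT, and 49.2, 38.1 and 36.7 in fASht against 60.4 and 45.2 in fWT. Pcdhb19 had 39.5, 27.0 and 40.9 in mAS against 32.0, 27.7 and 30.3 in mWT, and 38.4, 34.5 and 23.2 in fASht against 49.3 and 35.0 in fWT. Pcdhb3 varied widely within groups, from 13.5 to 32.3 within mWT alone. The 3 beta genes below 1 CPM in every group (Pcdhb1, Pcdhb2 and Pcdhb13) ranged from 0 to 14.8, and Pcdhb2 and Pcdhb13 were lower in all fASht than in all fWT libraries.

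Alpha protocadherins were at the limit of detection. Of 143 values of the 13 alpha genes over the 11 libraries, 72 were 0, and the highest was 12.2, for Pcdha2 in fASht replicate 3. The symbol Pcdha11 belongs to 2 gene identifiers in the annotation. No alpha gene passed the filter and none reached 1 CPM in any group mean. At these values a difference between groups was not detectable at this depth. Pcdhac1, 1 of the 2 C-type alpha genes, was highest in mWT replicate 3 and fASht replicate 3, at 0.19 and 0.0122, and was 0 or a trace close to 0 elsewhere. Pcdhac2, the other, had 0, 1.49 and 0 in mAS against 2.29, 4.34 and 0.0032 in mWT, and 0, 5.86 and 0.0002 in fASht against 0 and 0 in fWT.

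Members of a cluster moved together to some degree from library to library. After the group means were subtracted, the median Pearson r between pairs of named members was 0.40 over 231 gamma pairs and 0.32 over 171 beta pairs in the 6 male libraries, and 0.17 and 0.43 in the 5 female libraries. The pairs share their libraries, and gamma pairs share reads, so these values describe the libraries only.

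The summed markers of podocytes and of endothelium were also higher in every mAS library. For the marker counts below, 16.6% of all genes tested were called higher in mAS and 18.9% lower. The 15 podocyte markers summed to 372895, 473220.0 and 398109 in mAS, against 216550.0, 265398 and 173487 in mWT, with 11 of 15 past the test and higher (median log2 fold change 0.97). The 14 endothelial markers summed to 149734, 215868 and 187092 in mAS, against 109998, 139729 and 79494 in mWT, with 10 of 14 past the test and higher (median 0.91). The endothelial count fell to 2 without mAS replicate 2, 1 without mAS replicate 3, 1 without mWT replicate 1 and 2 without mWT replicate 3, and the podocyte count to 6 without mAS replicate 2 and to 7 without mAS replicate 3, mWT replicate 1 or mWT replicate 3. In males, mAS replicate 2 was the highest and mWT replicate 3 the lowest library for both lists, as for the gamma sum. The 20 proximal tubule markers summed to 120353, 52269 and 108157 in mAS, against 488683, 320766 and 541933 in mWT, all 20 past the test and lower (median -2.06), and 18 to 20 with a library left out. In females the podocyte sum was 299340.0, 349357 and 293026 in fASht, against 451730.0 and 329785 in fWT, and the endothelial sum 149719, 142759 and 125276 in fASht, against 224491 and 151250.0 in fWT, with no marker of either list past the test in limma (at an unadjusted p under 0.05, 2 podocyte and 4 endothelial markers were lower and 0 were higher). None of the podocyte and endothelial markers was at 0 in a whole group. The part of cell composition in the protocadherin values was not tested.

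Set against the podocyte markers, the male difference in the beta and gamma sums lay the other way, and set against the proximal tubule markers it lay the same way and was larger. These ratios were chosen after the values were seen and carry no test. The gamma sum per 1000 units of podocyte markers was 11.0, 11.9 and 12.5 in mAS against 16.0, 15.1 and 17.8 in mWT, a ratio of means of 0.722 with no overlap. Per 1000 units of endothelial markers it was 27.4, 26.0 and 26.6 in mAS against 31.5, 28.7 and 38.9 in mWT, a ratio of 0.807 with no overlap. The beta sum per 1000 units of podocyte markers was 2.22, 1.85 and 2.46 in mAS against 3.54, 2.86 and 3.20 in mWT, a ratio of 0.682 with no overlap. Per 1000 units of endothelial markers the beta sum was 5.54, 4.07 and 5.24 in mAS against 6.97, 5.43 and 6.98 in mWT, a ratio of 0.766 with overlapping groups. Per 1000 units of proximal tubule markers, the gamma sum was 34.1, 107.5 and 46.0 in mAS against 7.10, 12.5 and 5.71 in mWT, a ratio of 7.41, and the beta sum was 6.89, 16.8 and 9.06 in mAS against 1.57, 2.37 and 1.02 in mWT, a ratio of 6.60, both with no overlap. In females the gamma sum per 1000 units of podocyte markers was 15.0, 11.5 and 12.5 in fASht against 13.0 and 14.5 in fWT, a ratio of 0.947 with overlapping groups, per 1000 units of endothelial markers the ratio was 1.01, and per 1000 units of proximal tubule markers it was 0.786, also with overlap. The direction of the male gamma difference thus depended on what it was set against.

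**Figure D5:**
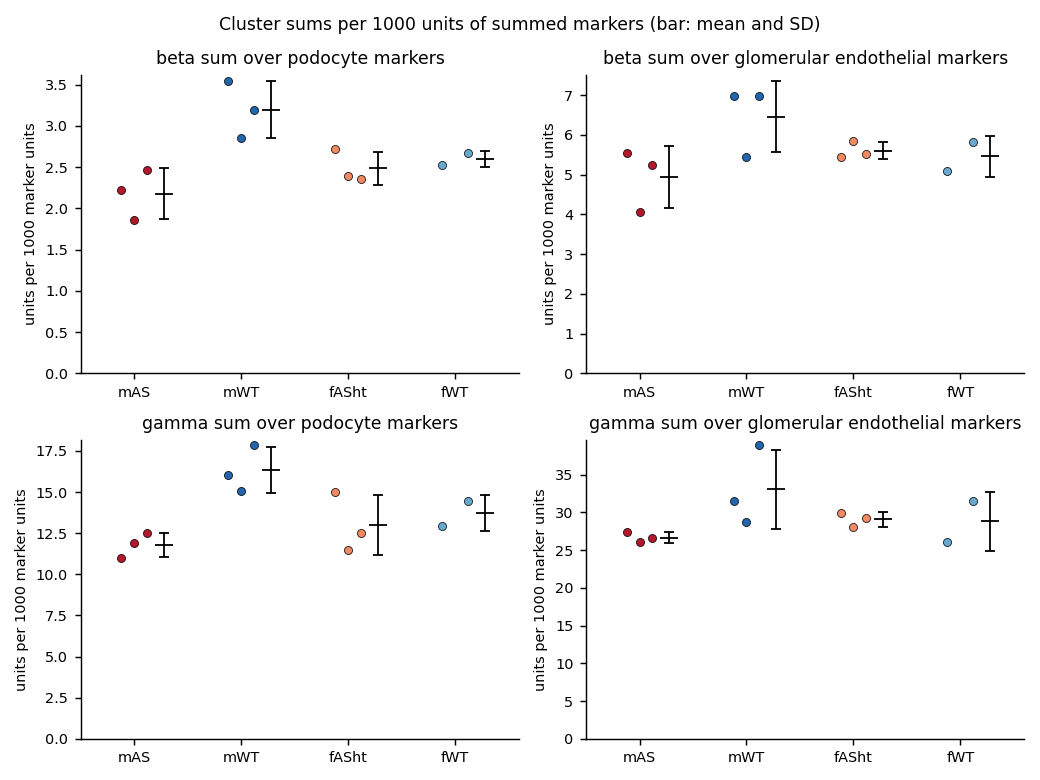
Points give the beta and the gamma sum of each of the 11 distinct libraries per 1000 units of the summed podocyte or endothelial markers, with the mean and SD of each group. The gamma ratios of mAS lie below those of mWT for both marker lists, and the female groups overlap in all panels.

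Other lists of markers gave the following values beside these. Among all genes tested, 16.6% were called higher and 18.9% lower in mAS, and 1.06% higher and 0.348% lower in fASht. Of 10 mesangial markers 2 were higher and 1 lower past the test in mAS, with sums of 23275 to 32563 in mAS and 16547 to 26634 in mWT. Of the 8 neuron and Schwann cell markers that were tested in males, 1 was lower past the test and none higher, with sums of 1094 to 1279 in mAS and 1026 to 1316 in mWT. Of 7 parietal epithelial markers 6 were lower and of 14 distal tubule and collecting duct markers 8 were lower in mAS. Of 11 lymphocyte and macrophage markers tested 2 were higher and 1 lower. In that list 0 passed without mAS replicate 2, mAS replicate 3, mWT replicate 1 or mWT replicate 3. Nuclear-retained RNAs such as Malat1 were higher in 5 of 7 tested genes, with sums of 27592 to 33997 in mAS and 15276 to 20982 in mWT. Of 13 immediate early genes 4 were lower in mAS and 8 were higher in fASht, with sums of 70409 to 122935 in fASht and 29839 to 32076 in fWT. In females, 3 of 14 distal tubule markers were higher and 1 of 19 proximal tubule markers lower. Of the 8 genes of the nuclear-retained list 1, Gas5, was higher. In males Gas5 lost its call whichever library was left out. With a library left out, the number lower in mAS ranged from 2 to 6 for the parietal list and from 0 to 12 for the distal list, and the number of nuclear-retained RNAs higher in mAS from 1 to 3. The 8 immediate early genes higher in fASht became 0 without fASht replicate 1 or fASht replicate 2. The part of these in the protocadherin values was not tested.

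Genes next to the clusters lay on both sides of no change. Of 24 neighbours (the 10 nearest on each side at 1 CPM or more, and those between or within the clusters, chosen after the values were seen), 11 had a log2 ratio above 0 in males, with a median of -0.03, and 13 in females, with a median of 0.03. In males 3 were past the threshold and higher (Apbb3, Arap3 and Pcdh12) and 2 lower (Wdr55 and Gnpda1), and in females none. The share over all genes tested in males was 16.6% higher and 18.9% lower. With each of the 6 male libraries left out in turn, Apbb3, Pcdh12 and Wdr55 kept their call in 2 of 6 fits (adjusted p up to 0.108, 0.122 and 0.0938 in limma), while Arap3 and Gnpda1 lost it without mWT replicate 1 (0.0559 and 0.0526). Taf7, which lies between the beta and gamma clusters, had 207, 233 and 219 in mAS against 183, 186 and 144 in mWT, a log2 ratio of 0.34, and Diaph1, the first gene past the gamma cluster, had 1405, 1469 and 1381 in mAS against 1605, 1557 and 1894 in mWT, a log2 ratio of -0.24. BC037039, an antisense gene that overlaps the start of Pcdhgc3, had 15.5, 0.0302 and 26.3 in mAS against 10.3, 13.5 and 1.16 in mWT, far below Pcdhgc3. Whether the counting used strand is not given in the sources used here.

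The nonclustered protocadherins are separate genes with related extracellular repeats and their own tails. Their list also holds the related cadherins Cdhr2 and Cdhr5, which are among the genes that fell. Of 9 tested, 4 rose and 3 fell in mAS, where 16.6% of all genes tested rose and 18.9% fell, and the median was 0.25. Pcdh19, mutated in an X-linked epilepsy of humans, had 152, 138 and 139 in mAS against 30.7, 76.2 and 55.7 in mWT (log2 fold change 1.21, standard error 0.24, adjusted p = 0.0103 from limma). Pcdh12, a protocadherin of endothelial junctions, had 2307, 3548 and 4132 in mAS against 1549, 2411 and 1216 in mWT (log2 fold change 0.96, standard error 0.29, adjusted p = 0.0362 from limma). Pcdh7 fell, with 39.5, 26.8 and 49.4 in mAS against 175, 92.6 and 189.6 in mWT (log2 fold change -1.56, standard error 0.27, adjusted p = 0.00776 from limma). Cdhr5 and Cdhr2, the cadherins that link microvilli of the brush border, fell too. Cdhr5 had 652, 305 and 597 in mAS against 2675, 1548 and 2595 in mWT (log2 fold change -2.13, standard error 0.31, adjusted p = 0.00576 from limma), and Cdhr2 had 81.3, 28.6 and 89.6 in mAS against 314, 216 and 473 in mWT (log2 fold change -2.09, standard error 0.38, adjusted p = 0.00804 from limma). Pcdh1, a neighbour of the gamma cluster, had 3059, 4113 and 4177 in mAS against 3016, 3958 and 2947 in mWT, with overlapping groups (log2 fold change 0.19, standard error 0.18, adjusted p = 0.418 from limma). The call of Pcdh12 was lost without mAS replicate 2, mAS replicate 3, mWT replicate 1 or mWT replicate 3, with an adjusted p of up to 0.122 in limma.

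Of 6 tested Fat, Dachsous and Celsr cadherins, the giant cadherins of planar polarity and growth control, 3 rose in mAS and none fell (median 0.40). Beside this count and that of the classical cadherins below, 16.6% of all genes tested rose and 18.9% fell. Fat4 had 612, 707 and 821 in mAS against 178, 338 and 161 in mWT (log2 fold change 1.65, standard error 0.26, adjusted p = 0.00631 from limma). Its ligand Dchs1 had 1228, 1793 and 1401 in mAS against 535, 1028 and 652 in mWT (log2 fold change 1.02, standard error 0.25, adjusted p = 0.0179 from limma). Fat1, a cadherin of the podocyte slit diaphragm, had 8576, 9605 and 8856 in mAS against 4602, 6469.9 and 6120.0 in mWT (log2 fold change 0.67, standard error 0.17, adjusted p = 0.0203 from limma). The Fat1 call was lost without mAS replicate 2 or mAS replicate 3 (adjusted p up to 0.0722 in limma) and that of Dchs1 without mAS replicate 3, mWT replicate 1 or mWT replicate 3 (up to 0.0627). Of 9 tested classical cadherins, 2 rose and 4 fell (median -0.78). Cdh11, a mesenchymal cadherin, rose, with 189, 223 and 198 in mAS against 64.0, 106 and 60.6 in mWT (log2 fold change 1.26, standard error 0.21, adjusted p = 0.00673 from limma). Cdh16, the kidney-specific cadherin of tubules, had 6619, 1886 and 3748 in mAS against 13488, 11163 and 17821 in mWT (log2 fold change -1.94, standard error 0.41, adjusted p = 0.0124 from limma). Cdh1, E-cadherin, had 3286, 904 and 1777 in mAS against 5048, 4150.1 and 6647 in mWT (log2 fold change -1.56, standard error 0.42, adjusted p = 0.0245 from limma), and Cdh2, N-cadherin, had 86.0, 84.1 and 122 in mAS against 232, 169 and 207 in mWT (log2 fold change -0.94, standard error 0.19, adjusted p = 0.0104 from limma). Both fell, with Cdh1 losing its call without mAS replicate 3, mWT replicate 1 or mWT replicate 3 (adjusted p up to 0.0836 in limma), and Cdh16 without mWT replicate 1 (0.0517). Cdh5, VE-cadherin of endothelium, had 7093, 11173 and 9501 in mAS against 6696, 6679 and 3724 in mWT (log2 fold change 0.72, standard error 0.27, adjusted p = 0.07 from limma).

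Of 15 tested genes for CTCF, cohesin and its loaders, 2 rose in mAS and none fell (median 0.14), a share of 13.3% where 35.5% of all genes tested were called. Ctcf, the looping factor that binds protocadherin promoters and enhancers, had 1336, 1329.7 and 1443 in mAS against 1209, 1166 and 1062 in mWT (log2 fold change 0.26, standard error 0.11, adjusted p = 0.101 from limma), and its lowest mAS library lay above its highest mWT library. Rad21, the cohesin kleisin subunit, had 6952, 7765 and 7699 in mAS against 6262, 6262 and 5963 in mWT, also without overlap (log2 fold change 0.28, standard error 0.13, adjusted p = 0.125 from limma). The genes past the test were Esco1, a cohesin acetyltransferase, with 583, 501 and 541 in mAS against 385, 421 and 351 in mWT (log2 fold change 0.47, standard error 0.13, adjusted p = 0.0247 from limma), and the loader Nipbl, with 2465, 2148 and 2457 in mAS against 1902, 1764 and 1704 in mWT (log2 fold change 0.39, standard error 0.12, adjusted p = 0.0334 from limma). Esco1 kept its call in 2 of the 6 fits that left out a library and Nipbl in 1, with an adjusted p of up to 0.0901 and 0.138 in limma elsewhere. Of 18 tested silencing and DNA methylation factors, 5 rose and none fell (median 0.32), a share of 27.8% where 16.6% of all genes tested rose and 18.9% fell. As the list was chosen with earlier results known, nothing is read from this share. Smchd1, which silences protocadherin clusters in mice, had 933, 872 and 986 in mAS against 859.7, 889 and 928 in mWT (log2 fold change 0.06, standard error 0.11, adjusted p = 0.696 from limma). Dnmt3b, the methyltransferase that sets promoter methylation of protocadherins in mouse embryos, had 48.8, 49.2 and 47.8 in mAS against 35.7, 50.8 and 24.2 in mWT (log2 fold change 0.31, standard error 0.20, adjusted p = 0.247 from limma). Dnmt3a, the other de novo methyltransferase, had 1147, 1078 and 1207 in mAS against 533, 704 and 582 in mWT (log2 fold change 0.91, standard error 0.13, adjusted p = 0.00576 from limma). Of the 3 methylcytosine oxidases Tet3 and Tet2 rose, with Tet3 at 1299.7, 1224 and 1200.5 in mAS against 449, 648 and 459 in mWT (log2 fold change 1.25, standard error 0.16, adjusted p = 0.00421 from limma) and Tet2 at 493, 395 and 369.7 in mAS against 237, 178 and 199 in mWT (log2 fold change 0.97, standard error 0.16, adjusted p = 0.00711 from limma). Tet1 had 112, 113 and 169 in mAS against 60.3, 97.0 and 86.0 in mWT (log2 fold change 0.59, standard error 0.22, adjusted p = 0.0664 from limma). Ehmt1, a histone H3 lysine methyltransferase, had 475, 532 and 555 in mAS against 344, 411 and 374 in mWT (log2 fold change 0.45, standard error 0.13, adjusted p = 0.0295 from limma), a call kept in 2 of 6 such fits, with an adjusted p of up to 0.124 in limma in the others.

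Protocadherin tails bind the kinase Ptk2b and, in some members, the WAVE complex, and Fyn is among the kinases linked to them. Adam10 sheds the extracellular part, and gamma-secretase then cuts the stub left in the membrane. Of 26 tested genes of these effectors and proteases, 4 rose and 4 fell in mAS (median 0.05), a share of 30.8% where 35.5% of all genes tested were called. Fyn had 1690.0, 2269.6 and 1950.3 in mAS against 1203, 1352 and 806 in mWT (log2 fold change 0.83, standard error 0.21, adjusted p = 0.0195 from limma). Ptk2b, the kinase Pyk2 that gamma protocadherins are known to inhibit, had 273, 165 and 263 in mAS against 702, 545 and 766 in mWT (log2 fold change -1.47, standard error 0.21, adjusted p = 0.00566 from limma). Wasf3, a WAVE protein, had 101, 96.0 and 148 in mAS against 51.7, 57.7 and 60.6 in mWT (log2 fold change 0.82, standard error 0.19, adjusted p = 0.0148 from limma), and Cyfip2, a WAVE complex subunit, had 2775, 944 and 1555 in mAS against 4510.4, 2435 and 4471 in mWT (log2 fold change -1.19, standard error 0.39, adjusted p = 0.048 from limma). Among fits that left out a library, Fyn lost its call in 3 of 6 and Cyfip2 in 4 of 6, with an adjusted p of up to 0.0637 and 0.156 in limma. Wasf3 lost its call without mAS replicate 3 or mWT replicate 1 (up to 0.0540).

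In females, none of the 82 tested genes of these 6 lists passed the test in limma, where 1.40% of all genes tested did (at an unadjusted p under 0.05, 6 were higher and 12 lower). List medians in females were -0.25 for nonclustered protocadherins, -0.15 for the Fat, Dachsous and Celsr genes, -0.04 for classical cadherins, -0.10 for CTCF and cohesin, 0.02 for silencing factors and -0.17 for effectors. Pcdh19 had 26.7, 68.1 and 51.2 in fASht against 105 and 104 in fWT (log2 fold change -0.93, standard error 0.27, adjusted p = 0.122 from limma), and Pcdh1 had 3386, 3589 and 3932 in fASht against 5647 and 5209 in fWT (log2 fold change -0.58, standard error 0.12, adjusted p = 0.0722 from limma), both lower in every fASht library. Pcdh12 had 3323, 3028 and 3638 in fASht against 3283 and 2743 in fWT, with overlap. Over all 6 lists, 31 of 83 genes (37.3%) passed in males, 20 higher and 11 lower, close to the 35.5% of all genes tested. Leaving out mAS replicate 2 gave 19, mAS replicate 3 gave 14, mWT replicate 1 gave 16 and mWT replicate 3 gave 19, and 13 of the 31 passed whichever library was left out. In females, leaving out fWT replicate 1 gave 2 and leaving out fWT replicate 2 gave 16.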

How the data were processed

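Bulk RNA of isolated glomeruli was sequenced as polyA-selected, stranded, paired-end libraries. Per the labels and the study's methods, the authors checked reads with FastQC, trimmed them with cutadapt, aligned them to mm10 with STAR and assigned them to genes in Partek, with versions not given in the sources used here. The deposited signal values, 1 table per sample, are gene counts after the authors' TMM normalization. Male and female tables may have been scaled apart, so levels were not tested across the sexes, and depth enters only as the estimated read pairs. Values below 1e-06 were taken as 0, and 22 male and 23 female rows whose symbols had become dates were keyed by their gene identifiers.

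Samples were grouped by their titles, and the third female wild-type table was left out as a repeat of the first. Tests used limma 3.58.1 in R 4.3.3 on log2(value + 1 CPM of the mean column total, which is 17.6 units in males and 17.8 in females) with a mean-variance trend, for genes at 0.5 CPM of the library's own column total or more in at least 3 libraries of the comparison, two-sided, with Benjamini-Hochberg adjustment over all genes tested at 0.05. A fold change on this scale understates the change of low genes. The comparisons were mAS against mWT, fASht against fWT and their difference. Ratios of sums are ratios of group means, with a standard error on the log2 scale. The fits were checked on simulated data with known answers. Members at a mean of 1 CPM or more in any group were named with every library's value and the rest by their range, with the 5 largest and 5 smallest log2 ratios of each comparison. Of the 6 lists of other cadherins and regulators, up to 4 genes past the test per list with the largest absolute change were named, with Col4a5, Ctcf, Smchd1, Rad21, Dnmt3b, Pcdh1, Pcdh12, Fat1 and Cdh5 whatever their result. The members and all lists were chosen with earlier results of these data known. Alternatives were other pseudocounts, filters, scalings, thresholds and designs, and leaving out each library. Tables and figures were made with Python 3.11.15, pandas 2.3.3, numpy 2.4.6 and matplotlib 3.10.9.

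The replicate numbers were checked for pairing by correlating deviations from the group means over all genes tested. They share only a number and were not used as a block.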

Additional observations from a re-analysis of the deposited data

Results flagged for a closer look

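For 10 clustered protocadherins the fitted male minus female difference in the genotype effect fell under the adjusted threshold of limma, which serves here only to list them. The difference is built from the contrasts that were known when the set was proposed, so its values are a description and no test of these genes. On the log2 scale they were 1.16 for Pcdhb4, 1.22 for Pcdhb9, 0.97 for Pcdhb10, 0.91 for Pcdhga1, 0.83 for Pcdhga3, 0.87 for Pcdhga6, 0.97 for Pcdhga7, 0.91 for Pcdhga8, 0.73 for Pcdhgb7 and 1.00 for Pcdhgc3. For Pcdhb20, at 0.70, and for the beta and gamma sums, at 0.74 and 0.87, every mAS library lay above every mWT library and every fASht library below every fWT library. The difference was not tested for the sums, and that of Pcdhb20 was not among the 10. In females the identifiers at the start of the column headers differ between the genotypes, and what they mark is not known. Without fWT replicate 1, which leaves 1 fWT library that is assumed to vary like the others, the number of members past the threshold for this difference fell to 0, as did that of all 15365 genes tested (3638 had an unadjusted p under 0.05). With all libraries 10.5% of 15492 genes were called with the male effect the more positive and 12.8% with it the more negative.

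Among named genes of the other lists, the male effect was the more positive for Pcdh19 (2.14), Fat4 (1.99), Cdh11 (1.38), Dchs1 (1.16), Fyn (1.11), Fat1 (1.10), Wasf3 (0.90), Pcdh1 (0.77) and Rad21 (0.59). It was the more negative for Cdh1 (-2.15), Cdhr2 (-2.02), Cyfip2 (-1.99), Cdh16 (-1.97), Cdhr5 (-1.88) and Ptk2b (-1.30). Each of these male minus female log2 differences passed the adjusted threshold of limma with all libraries, and each lost its call when at least 1 library was left out. Of the named genes, Pcdh1 and Rad21 passed in this difference without passing in either sex.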

How the results depend on the processing

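The direction of the beta and gamma sums held in both sexes under median-of-ratios scaling, equal column totals, the filter on the members summed and each library left out. The sums with column totals equal had male log2 ratios of 0.77 (beta), 0.87 (gamma) and -0.043 (alpha), and the equal totals made the female groups overlap in both the beta and the gamma sum. Male members past the threshold numbered 8, against 4 with no filter (more genes tested), 20 with equal totals and 5 at an unadjusted p under 0.05 with a fold over 1.5. Female members numbered 0, against 3 at that same threshold and 9 with the repeated fWT library kept, which counts the same values as 2 libraries. Genes of the 6 other lists numbered 31 in males, against 49 with equal totals, and 0 in females, against 3 with equal totals. The share of gamma values close to a whole number of reads was 10.9% within 0.05 of a step, against 0% within 0.01. The wider window also takes in divided values, so the 10.9% is not a share of whole reads.

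Leaving out each library in turn gave 2 to 9 male and 0 to 3 female members past the threshold, 0 to 13 for the difference between the sexes, and 14 to 34 male and 0 to 16 female genes of the other lists. The log2 ratio of the female beta sum ranged from -0.55 to -0.17 and that of the gamma sum from -0.53 to -0.24. In males they ranged from 0.23 to 0.45 and from 0.36 to 0.59. With the replicate block, 9 male and 0 female members passed, and same-numbered libraries correlated at 0.05, 0.52 and 0.06 in males and at 0.26 and -0.05 in females, so the numbers were not taken to pair the samples. Single members moved by more than the spread between libraries in 60 of 838 other values and in 20 of 451 with a library left out, and none that was called changed sign. The cause was not tested.

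Over all genes tested, 2638 were higher and 3003 lower in mAS, against 5292 and 1420 with equal totals and 999 and 1489 without mAS replicate 3. In fASht 167 were higher and 55 lower, against 626 and 48 with equal totals, 5 and 3 with no filter, 97 and 37 with quantile normalization, 106 and 41 with the filter at 2 CPM, 645 and 236 with the replicate block, 1027 and 335 at the unadjusted threshold with a fold, 1309 and 1208 with the repeated library kept and 2 and 2 without fASht replicate 2. Depth limits the alpha genes, whose highest value is 12.2. With 2 distinct fWT libraries, the female spread rests on few values.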
